A study of Mus musculus with 24 samples.

Results

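The genes described here encode proteins of DNA replication and mitosis, the parts of the cell cycle in which the genome is copied and then divided. They are 44 genes taken from lists of cell cycle genes by their role, 22 that act in S phase and 22 that act in mitosis, and all 44 were found among the 37315 genes of the expression table through the gene symbols of GENCODE vM21. Expression was measured by sequencing of ribosomal RNA-depleted total RNA in 24 libraries, 2 of each of 12 cell populations from 1 hybrid female mouse embryonic stem cell (ESC) line, PaX. In this line 1 X chromosome is of Mus castaneus origin (X cas) and is always active. The other is of Mus musculus origin (X mus), carries a green fluorescent protein reporter (X-GFP) and a truncation of Tsix, and is the one that becomes inactive on differentiation. All 12 populations carry these alleles together with a red fluorescent reporter driven by the Nanog promoter and a doxycycline-inducible cassette of c-Myc, Klf4, Oct4 and Sox2. ESCs were grown in serum with LIF. Neural precursor cells (NPCs) were derived from them, were kept with EGF, bFGF and a ROCK inhibitor, and were sorted as negative for SSEA1 and for both reporters. NPCs were then reprogrammed with doxycycline, LIF and ascorbic acid on irradiated male mouse embryonic fibroblast feeders, either without further treatment (control) or with interferon γ (IFNγ), which was given at 10 ng/ml over days 0 to 5. Day 2 cells were sorted as negative for the dye that marked the feeders, and day 5 cells as positive for the pluripotency surface marker SSEA1. Day 7 cells were SSEA1-positive and divided by the X-GFP signal into negative, medium and high cells, called GFP-negative, GFP-medium and GFP-high here, of which the last have the reporter of the formerly inactive X chromosome switched on again. The study's methods call the replicates independent, but neither they nor the labels say whether the 2 libraries of a population came from separate cultures, so p-values measure only the spread between these samples, which may be technical.

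Replication starts when the origin recognition complex, Cdc6 and Cdt1 load the Mcm2 to Mcm7 helicase onto origins. Cdc45 and the GINS complex then turn the helicase on, DNA polymerases copy both strands around the sliding clamp PCNA, and ribonucleotide reductase and thymidylate synthase supply the nucleotides. Many of these genes are targets of E2F transcription factors, which are released from retinoblastoma proteins late in G1 phase. Genes of mitosis are transcribed later, in G2 phase, when cyclin B with CDK1 drives entry into mitosis, Aurora and Polo kinases build the spindle, and the spindle checkpoint holds the cell until the anaphase-promoting complex with Cdc20 is let go. Mouse ESCs are known for a short G1 phase.

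The promoters of both groups are shown first because the members of each list are compared with each other throughout. A window from 250 bases before to 50 bases after the annotated start was held for 17 of the 22 S phase and 17 of the 22 mitotic members (RefSeq, GRCm38.p6). Each window was searched on both strands for 3 classes of words. The E2F-type class held TTGGCGC and its variants with TTCCCGC, with TTGCCGC or with TTCGCGC in its place. The class of the cell cycle genes homology region (CHR) held TTTGAA and its variant TTCGAA, and the last class was the CCAAT box. Mcm7 and E2f2 have a second window, and a gene was counted if any of its windows held the word. An E2F-type word was found for 11 of the 17 S phase members (64.7%), 3 of the 17 mitotic members (17.6%) and 10.9% of all 27025 genes with a window. A CHR word was found for 4 S phase members (23.5%), 14 mitotic members (82.4%) and 21.7% of all these genes. For E2f2 it lay only in the second window (chr4:136180532-136180831), which is inside the gene. The CCAAT box was found for 12 S phase members (70.6%), 16 mitotic members (94.1%) and 41.1% of all these genes. None of these words was found in the windows of Tyms, E2f1 and Mad2l1. The E2f1 window (chr2:154569377-154569676, minus strand) lies wholly inside the GENCODE gene, which begins at base 154569892. The GENCODE start of E2f1 was therefore not searched. The window of Cdc6 and both windows of Mcm7 also lie wholly inside their genes. Those of Mad2l1 and Mcm5 and the first of E2f2 end before the GENCODE start. The GENCODE starts of these 5 genes were therefore not searched either. Words can overlap, since TTGGCGC read on both strands shares bases in Mcm3, and a CCAAT box shares bases with an E2F-type word in Mcm7 and Ccnb1. A match describes letters in a window and is neither a binding site nor a cause.

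The windows of 6 members that recur below are printed in the direction of transcription, with all words of the 3 classes in capitals. Mcm3 (chr1:20820263-20820562, minus strand) and Mcm6 (chr1:128359656-128359955, minus strand) encode helicase subunits and hold E2F-type words near the start. Pola1 (chrX:93632106-93632405, minus strand) encodes the catalytic subunit of DNA polymerase α and is the X-linked member. Ccnb2 (chr9:70421505-70421804, minus strand) and Cdc20 (chr4:118437294-118437593, minus strand) hold CHR words and CCAAT boxes without an E2F-type word. Cdc25b (chr2:131186698-131186997, plus strand), the only mitotic member called lower with IFNγ in day 7 cells, also holds a CHR word and a CCAAT box.
Mcm3: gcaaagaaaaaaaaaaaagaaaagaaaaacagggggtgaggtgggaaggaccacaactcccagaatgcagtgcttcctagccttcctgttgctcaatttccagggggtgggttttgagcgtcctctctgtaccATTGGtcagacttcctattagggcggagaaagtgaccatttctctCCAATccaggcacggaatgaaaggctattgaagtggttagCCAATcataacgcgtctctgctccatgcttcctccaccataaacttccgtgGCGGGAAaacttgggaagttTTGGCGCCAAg
Mcm6: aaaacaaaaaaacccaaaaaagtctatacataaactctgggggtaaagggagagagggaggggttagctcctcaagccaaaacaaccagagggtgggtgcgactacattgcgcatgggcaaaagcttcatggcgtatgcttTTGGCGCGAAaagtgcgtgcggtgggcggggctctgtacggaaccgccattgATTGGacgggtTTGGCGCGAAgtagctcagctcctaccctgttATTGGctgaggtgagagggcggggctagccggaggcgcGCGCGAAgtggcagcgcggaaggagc
Pola1: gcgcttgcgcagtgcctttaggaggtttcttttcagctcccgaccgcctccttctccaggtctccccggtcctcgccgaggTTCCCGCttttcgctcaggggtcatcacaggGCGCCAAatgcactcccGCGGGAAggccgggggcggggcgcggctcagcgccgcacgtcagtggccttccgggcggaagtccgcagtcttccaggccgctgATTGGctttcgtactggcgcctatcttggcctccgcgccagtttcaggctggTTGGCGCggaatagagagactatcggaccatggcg
Ccnb2: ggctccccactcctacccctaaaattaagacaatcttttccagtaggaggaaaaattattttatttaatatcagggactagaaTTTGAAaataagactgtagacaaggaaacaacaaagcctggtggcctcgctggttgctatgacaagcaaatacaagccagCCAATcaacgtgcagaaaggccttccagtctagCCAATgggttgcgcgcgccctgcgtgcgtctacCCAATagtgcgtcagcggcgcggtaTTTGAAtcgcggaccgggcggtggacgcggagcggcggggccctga
Cdc20: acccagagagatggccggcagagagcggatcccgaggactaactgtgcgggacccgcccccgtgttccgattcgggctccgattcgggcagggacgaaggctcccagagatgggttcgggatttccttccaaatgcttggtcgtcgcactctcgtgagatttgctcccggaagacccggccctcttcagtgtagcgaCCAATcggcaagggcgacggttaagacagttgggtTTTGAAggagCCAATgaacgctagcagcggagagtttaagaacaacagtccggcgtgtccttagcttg
Cdc25b: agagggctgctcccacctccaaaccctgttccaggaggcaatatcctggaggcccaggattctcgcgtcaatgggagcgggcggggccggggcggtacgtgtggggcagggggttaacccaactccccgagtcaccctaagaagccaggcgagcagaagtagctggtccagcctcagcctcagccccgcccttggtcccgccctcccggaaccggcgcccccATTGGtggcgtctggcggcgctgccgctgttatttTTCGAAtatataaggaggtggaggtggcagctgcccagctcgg

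The depth was 24746109 to 37056508 reads on genes per library. Values are the normalized counts of the deposited table, in which the reads of each gene are divided by 1 size factor per library. A pair of counts below gives the 2 libraries of a population. The labelled cell types were checked against marker genes. The summed counts of 6 ESC markers were 142356 and 138457 in ESCs and 124 and 82.6 in NPCs, whereas those of 6 NPC markers were 45728 and 42058 in NPCs and 625 and 686 in ESCs. Both NPC libraries also held feeder-type matrix transcripts, with a sum over 6 collagen and matrix genes of 28189 and 40377 but at most 1.9 counts over 4 Y-linked genes. Reads of the male feeders were seen at day 2, where the Y-linked genes summed to 253 and 218 counts in control and 125 and 223 counts in IFNγ libraries. From day 5 on this sum was at most 12.5 in each library. In cell pools like these, fewer cells of a type and less RNA per cell cannot be told apart.

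All 44 members passed the filter of a mean normalized count above 10 in every comparison. Their replicates lay close together, with a median coefficient of variation of 4.74% over the S phase and 2.69% over the mitotic members. The widest pairs were Tyms in GFP-negative control cells (18.2%) and Cenpf in NPCs (17.9%). Per kilobase of exon in ESCs the helicase subunit Mcm5 (6151 normalized counts per kb), the DNA topoisomerase Top2a (4957) and Cdc20 (4328), an activator of the anaphase-promoting complex, had the highest levels. The transcription factors E2f1 (113) and E2f2 (65.3) and the phosphatase Cdc25b (109) had the lowest.

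Exons on the opposite strand matter for some of these values, because it is not stated whether counting used the strand. Protein-coding genes on the opposite strand share exon sequence with 10 members, and reads of such a pair cannot be told apart if strand was not used. The overlap covered 67.3% of the exon length of Gins2, 29.3% of Kif20a, 15.1% of Rfc2, 12.7% of Rfc4 and Cdc25c, 12.5% of Ccna2, 7.3% of Mcm7 with Ap4m1 and 1.4% with Cops6, 6.0% of Cdc45, 2.8% of Cdc20 and 2.5% of Cdc25b. Pcna, Tyms, Ccnb1 and Ccnb2 have annotated pseudogenes that could take reads from them.

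S phase and mitotic members differed in where they were low. The day 7 GFP-negative control population had the lowest mean for 14 of the 22 S phase members, day 2 control cells for 6 and NPCs for 2, whereas ESCs had the highest for 15. Mitotic members were lowest in day 2 control cells for 10 genes, in ESCs for 5, in day 2 IFNγ cells for 4 and in GFP-negative control cells for 3. Their highest means were spread over 8 populations. The fold between the highest and the lowest population had a median of 2.98 over S phase and 2.02 over mitotic members. It was widest for E2f2 (5.44), Tyms (5.39), Pola1 (4.84), Ccnb2 (4.7) and Cdc25b (4.15).

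**Figure D1:**
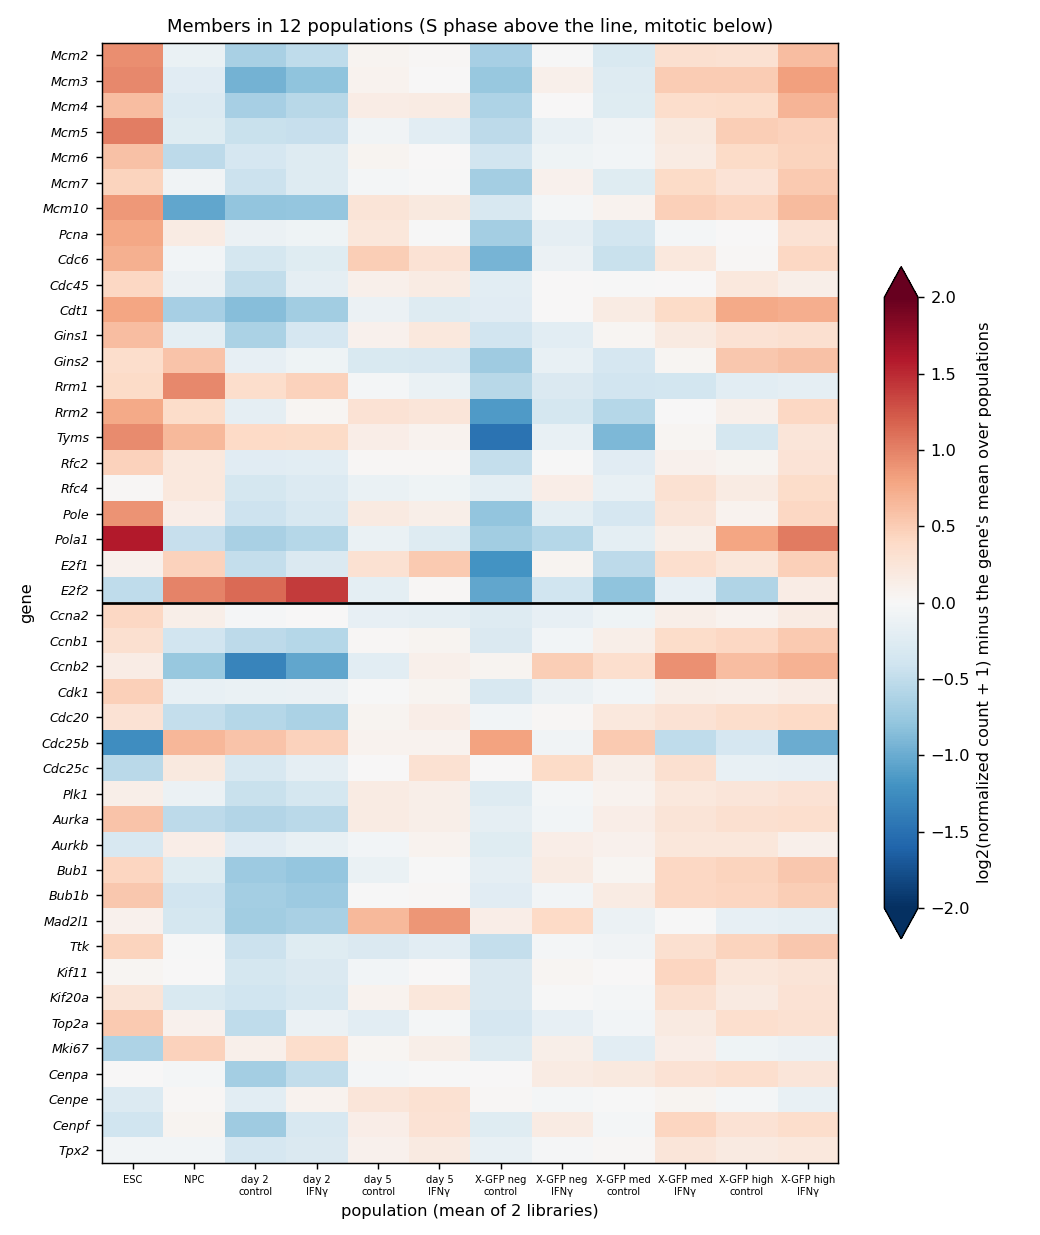
Heat map of the 44 members (rows, S phase members above mitotic members) in the 12 populations (columns), with color for the mean level of 2 libraries as a log2 difference from the mean over the populations. The GFP-negative control column is the lowest for 14 of the 22 S phase members, and Cdc25b, highest in that column and lowest in ESCs, runs against most rows.

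An index, the geometric mean of the 22 members of a list as a percentage of its mean in ESCs, gave the course of each list. The S phase index was 66.4% ± 4.6 (SD, n = 2, as for all index values) in NPCs and 51.5% ± 1.93 in day 2 control cells. It was 67.7% ± 2.71 at day 5, 40.9% ± 3.28 in GFP-negative, 53.5% ± 2.03 in GFP-medium and 75.5% ± 2.76 in GFP-high control cells. The mitotic index was 90.3% ± 7.05 in NPCs, 72.1% ± 2.8 at day 2 and 97.9% ± 1.18 at day 5. In day 7 control cells it was 87.5% ± 0.0057, 100.2% ± 2.62 and 111% ± 4.32 from GFP-negative to GFP-high cells. The ratio of both indices, which is 1 in ESCs by construction, was 0.736 ± 0.00651 in NPCs and was lowest at 0.468 ± 0.0375 in GFP-negative control cells. The indices sum up the members and carry no test.

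**Figure D2:**
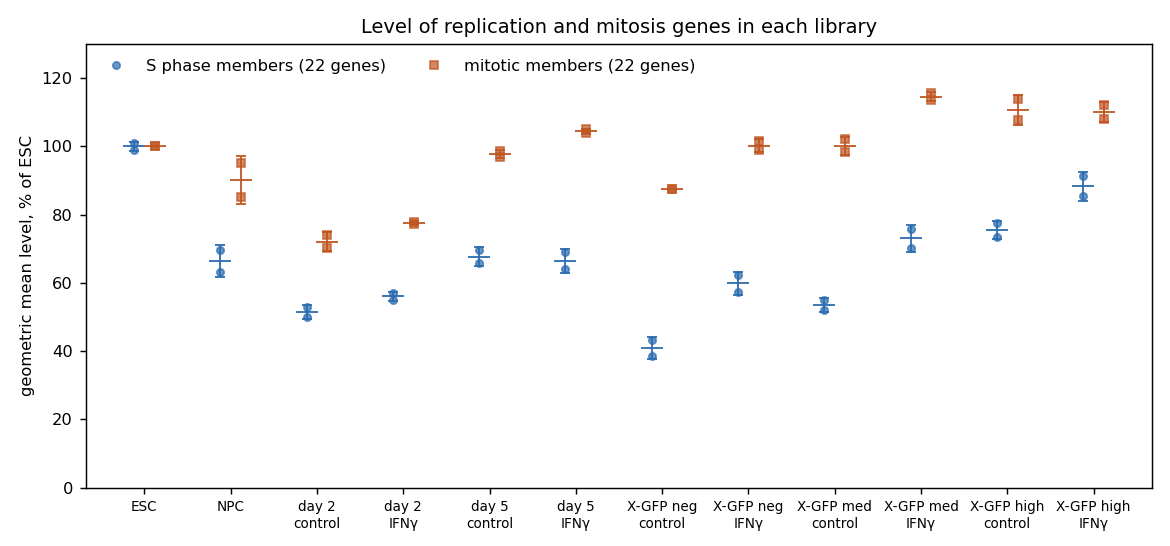
Index of S phase and mitotic members (percent of ESC, geometric mean over 22 genes, vertical axis) in each population (horizontal axis), where points are single libraries and bars the mean with its SD, and control and IFNγ populations are set side by side. The S phase index falls to 40.9% in GFP-negative control cells and reaches 88.4% in GFP-high IFNγ cells, while the mitotic index stays between 72.1% and 115%.

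ESCs and NPCs, the end points of the system, were compared first. Relative to NPCs, ESCs had higher counts of 17 S phase members and lower counts of 4, with a median log2 fold change of 0.69, and higher counts of 13 mitotic members and lower counts of 6, with a median of 0.37. Over all 15911 genes tested the median was -0.03, with 42.2% called higher and 43.4% called lower (limma, Benjamini-Hochberg adjusted p under 0.1). Differences ran from -1.50 to 2.05 in the S phase list and from -1.91 to 1.09 in the mitotic list.

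The helicase genes were all higher in ESCs. Mcm2 had 12660.0 and 12786 counts in ESCs and 6274 and 5815 in NPCs (log2 fold change 1.07 ± 0.06 (SE), adjusted p = 2.08e-05). Mcm3 had 14516 and 14411 against 6901 and 5852, and Mcm4 10592 and 10969.6 against 5994 and 5603. Each of these groups was apart by more than the spread of its pair. Mcm5, the most abundant of the complex, had 24743 and 24382 against 10557 and 9824, a 2.41-fold difference. Mcm6 had 17941 and 18269 against 8938 and 7889.5, and Mcm7 11939.7 and 11759.5 against 8799.8 and 7767. Mcm7 was the subunit with the smallest difference (log2 fold change 0.52, adjusted p = 0.00104).

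Among the licensing and clamp genes, the loading factors were also higher in ESCs. Cdt1, which brings the helicase to origins, had 7349 and 7684 counts in ESCs and 2977 and 2548 in NPCs (log2 fold change 1.45). Cdc6, its partner in loading, had 2603 and 2632 against 1581 and 1499. Pcna, the sliding clamp, had 7932 and 7982 against 5667 and 4752. All 3 genes passed the test. Rrm2, the regulated subunit of ribonucleotide reductase, had 9546 and 9556 against 7781 and 6827 (log2 fold change 0.39), whereas Rrm1, its large subunit, was lower in ESCs (-0.57, adjusted p = 0.000248).

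The widest S phase difference was that of Pola1, with 15009.7 and 15250.2 counts in ESCs and 3850.5 and 3469 in NPCs (4.14-fold, log2 fold change 2.05 ± 0.07 (SE), adjusted p = 4.33e-06). Opposite to it, E2f2, an activating E2F factor, had 301 and 337 counts in ESCs and 1005 and 813 in NPCs (log2 fold change -1.50 ± 0.14 (SE), adjusted p = 0.000124). E2f1, a second activating factor, had 331 and 379.7 against 507 and 416 and was also lower in ESCs (adjusted p = 0.0527). Gins2, a GINS subunit, was lower as well (log2 fold change -0.21), and Rfc4, a subunit of the clamp loader, did not pass (-0.18, adjusted p = 0.106).

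Mitotic genes split between both directions. Ccnb1, encoding cyclin B1, had 8776 and 8810.4 counts in ESCs against 5620.2 and 5095 in NPCs, and Cdk1, its kinase, 7296 and 7098 against 4675 and 4652. Cdc20 had 7951 and 8219 against 5087 and 4486. These 3 regulators of mitotic entry and exit were higher in ESCs, by 0.63 to 0.76 on the log2 scale. Ccna2, encoding cyclin A2, had 10976 and 10909.7 against 9249 and 8458, and Plk1, the Polo-like kinase, 2306 and 2373 against 2007 and 1970.4. Bub1b, a checkpoint protein, had 11909 and 12231 against 6653 and 6034, and Top2a, which untangles chromosomes, 44743 and 44617 against 35059 and 31142. All 4 passed the test as higher in ESCs. Aurka, a kinase of the spindle poles, had the largest increase of the mitotic list (log2 fold change 1.09 ± 0.07 (SE), adjusted p = 3.56e-05).

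Lower in ESCs were Cdc25b, Cdc25c, Aurkb, Mki67, Cenpe and Cenpf. Cdc25b, a phosphatase that activates CDK1, had 407 and 407 counts in ESCs and 1682 and 1393 in NPCs (log2 fold change -1.91 ± 0.11 (SE), adjusted p = 2.09e-05). Its paralog Cdc25c had 670.2 and 650.0 against 1183 and 1013, and Aurkb, the kinase of the chromosomal passenger complex, 1616 and 1508 against 2295 and 1981. Mki67, whose protein is the Ki-67 proliferation marker, had 9936 and 10736 against 23648 and 20004 (log2 fold change -1.07). Mki67 was therefore lower in the population in which most S phase members were higher. Cenpa, the centromeric histone H3 variant, had 2569.7 and 2619 against 2657 and 2355, and the groups overlapped. Without ESC replicate 1 the count of members lower in ESCs was 6 in place of 10.

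The steps of control reprogramming share libraries from one step to the next, so each is given with its own values. From NPCs to day 2, 17 S phase members fell and 1 rose (median log2 fold change -0.39), and 15 mitotic members fell and none rose (median -0.32). Over the 15738 genes tested, 31.6% were called higher and 37.6% lower, with a median of -0.08. For the absence of mitotic increases, edgeR and DESeq2 also gave 0, and all mitotic estimates but that of Cdk1 (0.00) were negative. Without day 2 control replicate 1 the count of members that fell was 20 in place of 32. The feeder transcripts named above were present in the same day 2 libraries. The matrix genes summed to 60171 and 40496 counts there and to 28189 and 40377 in NPCs. The Y-linked genes summed to 253 and 218 counts at day 2 and to at most 1.9 in NPCs. The part of these transcripts in the result was not tested.

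E2f1 fell most in the S phase list, to 233 and 245 counts at day 2 (log2 fold change -0.94 ± 0.15 (SE), adjusted p = 0.00245). Mcm2 had 4098 and 4431 counts, Mcm3 3778 and 3931 and Mcm4 4384 and 4425, all below both NPC libraries. Mcm7 had 6082 and 6807, Mcm5 8589 and 9011 and Mcm6 8968 and 10058. Of these last 3, Mcm5 and Mcm7 fell, and Mcm6 did not pass (0.18, adjusted p = 0.154). The single increase was that of Mcm10, a factor that helps to switch on the helicase (log2 fold change 0.25 ± 0.08 (SE), adjusted p = 0.0387), and that call was lost when any library but NPC replicate 1 was left out.

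Pcna had 4238 and 4293 counts at day 2, Cdc6 1237 and 1271 and Rrm2 4798 and 5176, and all 3 fell. Cdt1 had 2296 and 2515 and Pola1 3058 and 3388, below both NPC libraries in each case, with adjusted p = 0.135 and 0.119. E2f2 had 878 and 1124 and overlapped with NPCs. The supply and clamp genes thus moved while these 3 did not pass the test.

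In the mitotic list, Cenpf, a protein of the outer kinetochore, fell most (log2 fold change -0.75 ± 0.13 (SE), adjusted p = 0.00389). Top2a had 20924 and 23017 counts at day 2, Cenpa 1548 and 1673 and Mki67 15965 and 18267, all below NPCs. Plk1 had 1594 and 1602, Aurkb 1663 and 1688 and Bub1b 4954 and 5367, and these also fell. Cdc25c had 709.8 and 819 and fell by 0.52 on the log2 scale. Ccnb2, encoding cyclin B2, had 1395 and 1441 and fell by 0.55. No change passed for Ccna2, which had 7639.6 and 8499, or for Ccnb1 (4771 and 4956), Cdk1 (4692 and 4658), Cdc20 (4644 and 4326) and Cdc25b (1409 and 1468). Of these 5, Ccnb1 alone lay below both NPC libraries in both day 2 libraries.

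From day 2 to day 5 most members rose again. Of the S phase list 18 rose and 3 fell (median 0.49), and of the mitotic list 18 rose and 2 fell (median 0.46), against 34.9% of 15729 genes higher and 35.6% lower (median 0.00). Day 5 cells were sorted for SSEA1 and day 2 cells were not, and the feeder transcripts of day 2 were lower at day 5, with 10 of 10 feeder markers called lower. The part of either difference was not tested. When the libraries were rescaled to the same total, the median of all genes moved by -0.125, 31 members were higher and 7 lower.

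Mcm10 rose most in the S phase list (log2 fold change 1.04 ± 0.07 (SE), adjusted p = 2.76e-05). Mcm3 reached 7397 and 8165 counts (log2 fold change 1.01), Mcm2 6538 and 7305 and Mcm4 7197 and 8232. Mcm5 had 11084 and 11804, Mcm6 12311 and 12824 and Mcm7 8005 and 8769. The whole helicase was higher than at day 2 by 0.38 to 1.01 on the log2 scale. Cdc6 had 2215 and 2296, Cdt1 3952 and 4037 and Pcna 5224 and 5669, and Rrm2 had 6371 and 7409. E2f1 had 382 and 441 and Pola1 4744 and 4507, and all 6 of these genes rose. E2f2 went the other way, to 409 and 384 (log2 fold change -1.32 ± 0.14 (SE), adjusted p = 0.000148), together with Rrm1 and Tyms, the thymidylate synthase gene (log2 fold changes -0.39 and -0.26).

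Mad2l1, a spindle checkpoint gene, had the largest mitotic increase, from 1839 and 1823 to 4521 and 4732 counts (log2 fold change 1.34 ± 0.06 (SE), adjusted p = 7.25e-06). Ccnb1 had 6638 and 7671, Cdc20 6783 and 7048 and Plk1 2414 and 2437. Bub1b had 8328 and 8147, Cenpa 2343 and 2640.3 and Top2a 26759 and 27189.5. All of these rose, as did Cdc25c (912 and 1008), Aurkb (1871 and 1898) and Cdk1 (5081 and 5183). Ccna2, with 7283 and 7267, fell at the edge of the threshold (adjusted p = 0.0996). Cdc25b fell to 1112 and 910.3 (log2 fold change -0.52 ± 0.11 (SE), adjusted p = 0.0048). Mki67 had 16645 and 15921 and overlapped with day 2.

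**Figure D3:**
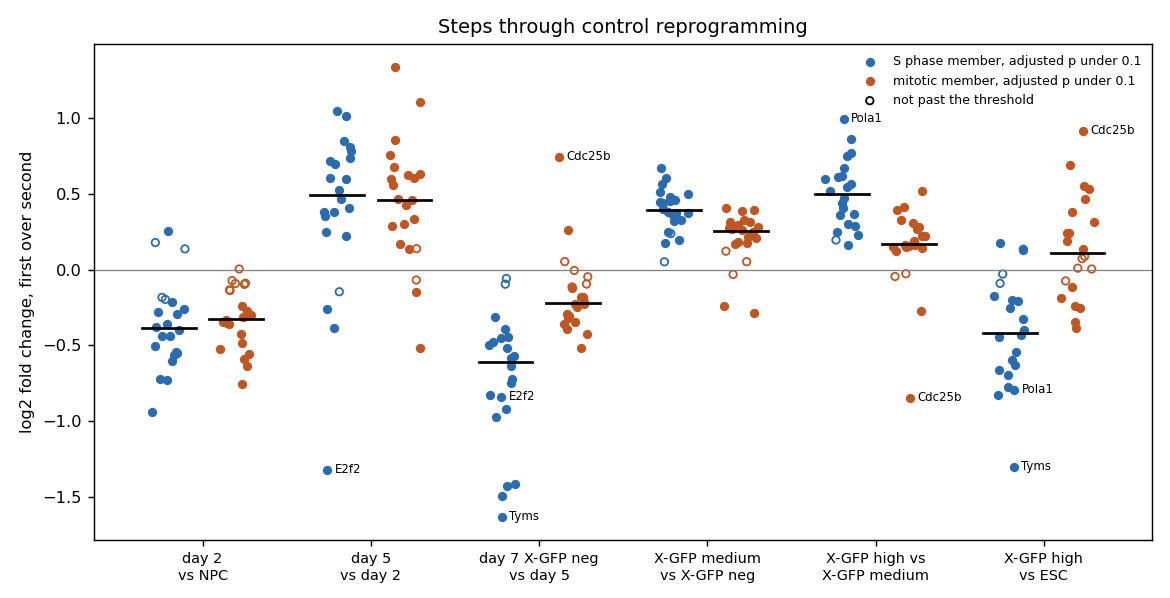
Log2 fold changes of the 44 members (vertical axis) in 6 comparisons of control populations (horizontal axis), with 1 point for each gene and S phase and mitotic members in separate columns and colors. S phase members lie at or below 0 from day 5 to GFP-negative cells and above 0 in both following steps up the GFP populations, and mitotic members other than Cdc25b cover a narrower range than S phase members except from GFP-negative to GFP-medium cells.

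GFP-negative control cells of day 7 had lower S phase counts than day 5 control cells. Of the S phase members 20 were lower and none higher (median -0.61), and of the mitotic members 15 were lower and 2 higher (median -0.22), against 34.2% of 15225 genes higher and 29.5% lower (median 0.04). All 22 S phase estimates were negative, and edgeR and DESeq2 also called 0 of them higher. Day 5 cells were not divided by X-GFP, so the time and the gate cannot be told apart here.

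Tyms fell most, from 1486 and 1719 counts at day 5 to 453 and 587 (log2 fold change -1.63 ± 0.14 (SE), adjusted p = 7.78e-05). E2f1 had 139 and 151, Cdc6 767 and 916 and Rrm2 2406 and 2770.3, with log2 fold changes of -1.49, -1.43 and -1.41. These 4 genes were the ones that fell by more than 1 on this scale. Pcna had 2819 and 2949.5 and E2f2 209.6 and 234. Mcm2 had 3922 and 4478, Mcm3 3991 and 4804 and Mcm4 4363 and 4798. Mcm5 had 7925 and 8823, Mcm6 8739.8 and 9740.1 and Mcm7 5147 and 5632. The 6 helicase subunits fell by 0.45 to 0.83. Pola1 had 2919.5 and 3331 and fell by 0.57, whereas Cdt1, with 3524 and 3961, overlapped with day 5.

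Mad2l1 fell most among mitotic members (log2 fold change -0.51 ± 0.06 (SE), adjusted p = 0.000373), followed by Plk1 (1778 and 1838) with -0.42. Ccnb1 had 5812 and 5712 counts, Cdk1 4034 and 4180.1 and Bub1b 6878 and 7359. Top2a had 24821 and 24810.4, Mki67 12954 and 13572 and Aurkb 1657 and 1661. These 6 genes fell by at most 0.32. The 2 mitotic members that rose were Cdc25b, to 1836 and 1545 (log2 fold change 0.74 ± 0.12 (SE), adjusted p = 0.00143), and Ccnb2, encoding cyclin B2 (0.26, adjusted p = 0.0148). Ccna2 (7015 and 6610.3), Cdc20 (6335 and 6439), Cdc25c (1012 and 901) and Cenpa (2578 and 2579) did not pass.

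Across the GFP populations of day 7 the S phase members rose at both steps. GFP-medium control cells had 20 S phase members higher and none lower than GFP-negative control cells (median 0.39), with 17 mitotic members higher and 2 lower (median 0.26). The background was 21.9% of 15382 genes higher and 25.2% lower (median -0.02). With libraries rescaled to the same total, 60.2% of the called genes were higher in place of 46.5%, and 40 members were higher and 2 lower. GFP-high control cells had 21 S phase members higher than GFP-medium control cells and none lower (median 0.50), with 18 mitotic members higher and 2 lower (median 0.17), against 31.4% of 15516 genes higher and 32.7% lower (median 0.00). No S phase estimate was negative at either step, and edgeR and DESeq2 likewise called 0 lower. The ESC marker sum rose along the same populations, from 21454 and 23847 over 46267 and 47287 to 92825 and 93175 counts, and its part in the result was not tested.

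In GFP-medium and then GFP-high control cells, Mcm2 had 5333 and 5504 and then 7957 and 8544 counts, and Mcm3 5998 and 6475 and then 10195 and 11067. Mcm4 had 5746 and 6065 and then 8835 and 9227, and Mcm5 11274 and 11571 and then 16275 and 17530.0. Mcm6 had 11269 and 11897 and then 15433 and 15975, and Mcm7 7232 and 7425 and then 10195 and 10831. For every helicase subunit the 3 populations were apart at both steps, but the share of all genes with groups apart was not counted. The step to GFP-high cells was 0.44 to 0.77 on the log2 scale.

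Pcna had 3524 and 3679 and then 4499 and 4804 counts, and Cdc6 1068 and 1270.0 and then 1563 and 1674. Cdt1 had 4878 and 4854 and then 7041 and 7697, and Rrm2 3672 and 3959 and then 5906 and 6196. Each of the 4 rose at both steps. E2f1 had 214 and 251 (log2 fold change 0.67 ± 0.13 (SE), adjusted p = 0.00215, the largest S phase increase of the first step) and then 370.2 and 409. E2f2, with 264 and 258 and then 306 and 291, did not pass at either step (adjusted p = 0.122 and 0.132).

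Ttk, a kinase of the spindle checkpoint, was the mitotic member with the largest increase at both steps (log2 fold changes 0.41 and 0.51). Ccnb1 had 7801 and 7336 and then 9349.8 and 9331 counts, and Bub1b 9357 and 9231 and then 11174 and 11147. Top2a had 29506 and 30251 and then 38757 and 39576. These and the following 5 genes rose at both steps. Ccna2 had 7939 and 7444 and then 8808 and 8394, and Cdk1 5086 and 4846 and then 5626 and 5416. Cdc20 had 7859 and 7463 and then 8647 and 8349, Plk1 2359 and 2178 and then 2626 and 2507, and Aurkb 2077 and 2048 and then 2343 and 2234.

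Cdc25b fell at both steps, to 1506 and 1263 and then 821 and 718 (log2 fold changes -0.29 with adjusted p = 0.0347, and -0.84 with adjusted p = 7.88e-07). Cdc25c had 1056 and 1021 and then 912 and 808, and passed, as a decrease, at the second step. Mki67 had 14080.4 and 13413 and then 15831 and 14102, overlapping with GFP-negative cells at the first step. Cenpa had 3099 and 2761 and then 3334 and 3129 and passed at both.

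Against ESCs, GFP-high control cells were lower for 17 S phase members and higher for 2 (median -0.42), and higher for 11 mitotic members and lower for 6 (median 0.11). The background was 37.9% of 15427 genes higher and 37.8% lower (median 0.00). Tyms was furthest below ESCs, with 1048 and 1237 against 2842 and 2759.8 counts (log2 fold change -1.30 ± 0.08 (SE), adjusted p = 3.52e-09). Cdk1 was the mitotic member furthest below (log2 fold change -0.38 ± 0.05 (SE), adjusted p = 1.11e-05). On the higher side were Gins2 (0.18) and Cdc25b (log2 fold change 0.91 ± 0.09 (SE), adjusted p = 9.71e-07).

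GFP-high IFNγ cells were lower than ESCs for 13 S phase members and higher for 4 (median -0.27), and higher for 12 mitotic members and lower for 5 (median 0.16), against 33.2% of 15387 genes higher and 33.9% lower (median -0.01). Without ESC replicate 1 the count of members higher was 8 in place of 16. The 4 S phase members above ESCs were Gins2, Rfc4, E2f1 and E2f2, led by E2f2 with 476 and 527 counts (log2 fold change 0.65 ± 0.12 (SE), adjusted p = 0.000426). Tyms was again the lowest relative to ESCs (-0.70), Cenpf the mitotic member furthest above (0.75) and Cdk1 the one furthest below (-0.34). This comparison shares the ESC libraries with the one before it.

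Pola1 is the member on the X chromosome (chrX:93304767-93632155 in mm10, minus strand) and has an allelic value. Its share of reads from X mus, 1 value of the authors for each population, was 50.3% in ESCs, 0.0467% in NPCs and at most 0.324% in day 2, day 5 and GFP-negative cells. In GFP-medium cells it was 5.79% in control and 11.7% in IFNγ cells, and in GFP-high cells 29.8% and 36.3%. The median over the 316 genes with such a value was 48.1% in ESCs, 0.107% in NPCs, 11.0% and 23.6% in GFP-medium and 33.6% and 39.6% in GFP-high cells. The reads behind each share are unknown here, so no interval is given.

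The total count of Pola1 rose in the same order as this share from GFP-negative through GFP-medium and GFP-high control cells to ESCs. Day 5 control cells stood outside this order, with a mean of 4626 counts at a share of 0.251%. GFP-medium control cells had a mean of 4396 at 5.79%. The count rose from 4233 and 4559 in GFP-medium to 8193 and 9295 in GFP-high control cells. That step was the largest increase of any S phase member (log2 fold change 0.99 ± 0.06 (SE), adjusted p = 2.68e-09). The product of the count and the remaining share, assigned to the always active X cas, was 3124 in GFP-negative, 4141 in GFP-medium and 6138 in GFP-high control cells and 7525 in ESCs. The reads assigned to X cas were therefore also higher along these populations. With IFNγ these products were 3377, 4808 and 6638.

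**Figure D4:**
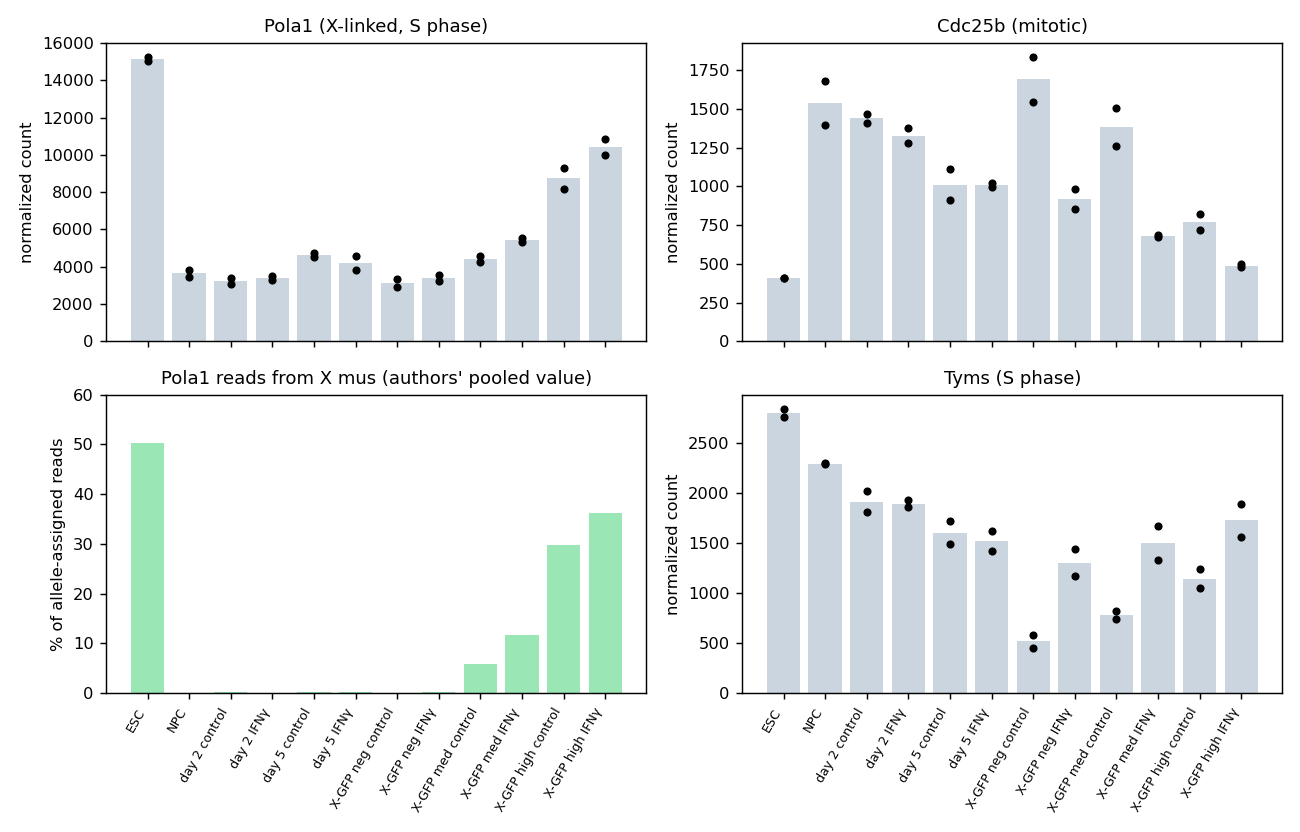
Normalized counts of Pola1, Cdc25b and Tyms (vertical axes, bars for the mean of 2 libraries and points for each) and the share of Pola1 reads from X mus in percent (lower left) over the 12 populations. Pola1 is 4.84-fold higher in ESCs than in GFP-negative control cells, its X mus share is above 5% in ESCs and in GFP-medium and GFP-high cells, and Cdc25b is lowest in ESCs.

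IFNγ was compared with control cells in each of 5 populations. At day 2, 1 S phase member rose with IFNγ and none fell (median 0.11), and 4 mitotic members rose and none fell (median 0.06). The share of all 15697 genes called was 5.03% higher and 3.45% lower (median 0.01). At an unadjusted p under 0.05 there were 5 S phase and 6 mitotic members, and edgeR and DESeq2 also called 5 higher and 0 lower. With the replicate number as a block 15 members were higher. Without day 2 IFNγ replicate 1 the count was 2, and it was 1 without IFNγ replicate 2 or without control replicate 1.

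The S phase member that rose was Cdc45, a component of the active helicase, from 1245 and 1192 to 1499.5 and 1523 counts (log2 fold change 0.31 ± 0.06 (SE), adjusted p = 0.0474). Cenpf rose from 3365 and 3779.6 to 4413 and 4996 (log2 fold change 0.40 ± 0.08 (SE), adjusted p = 0.0519), and Top2a from 20924 and 23017 to 28711 and 28653 (log2 fold change 0.39). The other 2 were Ccnb2 (0.28) and Cenpe, a kinetochore motor (0.29). In the same libraries 3 of 10 feeder markers fell with IFNγ and none rose. The matrix gene sum was 60171 and 40496 counts in control and 29817 and 24364 in IFNγ cells. NPCs held these matrix transcripts too, so this sum does not mark feeders alone. The Y-linked feeder genes overlapped, with 253 and 218 counts in control and 125 and 223 in IFNγ cells. The part of these transcripts in the differences was not tested.

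The remaining day 2 IFNγ counts did not pass. Where no difference exists, 2 libraries still lie wholly above or below 2 others with a probability of 0.33. The share of all genes with groups apart was not counted in any comparison. No IFNγ effect or other difference is therefore read from groups that lie apart without passing, here, at day 5 or elsewhere. Mcm2 had 4701 and 4675 counts with IFNγ, Mcm3 4239 and 4288 and Mcm4 4819 and 4713, and these 3 lay above both control libraries. Mcm5 had 8529 and 8988, Mcm6 9921 and 10322 and Mcm7 7063 and 7441, of which Mcm7 alone was apart from control. Pcna had 4371 and 4398, Cdc6 1336 and 1375 and Cdt1 2581 and 2797. Rrm2 had 5721 and 5823, E2f1 255 and 289, E2f2 1156 and 1255 and Pola1 3275 and 3519. Of these 7 genes only Pola1 overlapped with control cells.

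Among mitotic genes Mki67 had 19052 and 21469.9 and Cenpa 1813 and 1857 at day 2 with IFNγ, apart from control but without passing (adjusted p = 0.183 and 0.175). Ccna2 had 8199 and 8274, Ccnb1 4713 and 4780.2 and Cdc20 4465 and 4124, and Bub1b had 5049.9 and 4991. These 4 overlapped with control cells. Cdk1 had 4814 and 4729, Plk1 1662 and 1742 and Aurkb 1742 and 1799. Cdc25c had 824 and 863 and Cdc25b 1278 and 1375, the last below both control libraries (-0.12, adjusted p = 0.398).

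At day 5 no member passed in either direction by limma, edgeR or DESeq2 (medians -0.05 for S phase and 0.07 for mitotic members), where 1.65% of 15133 genes were called higher and 0.535% lower (median 0.00). At an unadjusted p under 0.05 there were 1 S phase and 4 mitotic members. DESeq2 changed the split of calls over all genes, of which 61.0% were higher in place of 75.5%. With all 24 libraries in 1 model 4 members were higher and 1 lower, with the replicate block 3 and 1, and without day 5 IFNγ replicate 1 there were 1 and 1.

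Helicase counts at day 5 with IFNγ were 7052 and 6503 for Mcm2, 7858 and 7073 for Mcm3 and 8062 and 7659 for Mcm4. They were 10651 and 10112 for Mcm5, 12592 and 11719 for Mcm6 and 8834 and 8390.2 for Mcm7. Of the 6 only Mcm5 was apart from control cells, and lower. Pcna had 4889 and 4369.5, Cdc6 2106 and 1802 and Cdt1 3728 and 3523, and these 3 lay below both control libraries. Rrm2 had 6891 and 6428 and Pola1 4557 and 3852, with overlap. E2f1 had 480.3 and 483 and E2f2 474 and 450.0, both above control cells.

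For mitotic genes at day 5 with IFNγ, Ccnb1 had 7132 and 7427 counts, Ccna2 7509 and 6895 and Plk1 2481 and 2218. Bub1b had 8763 and 8044, Cdc25b 997 and 1025 and Cenpa 2541 and 2593. These 6 overlapped with control cells. Cdk1 had 5356 and 5328, Cdc20 7088 and 7423 and Cdc25c 1117 and 1252. Aurkb had 2065 and 2029, Top2a 31002 and 29886 and Mki67 17622 and 16941. The last 6 lay above both control libraries by 0.06 to 0.30 on the log2 scale without passing, from which, as at day 2, no IFNγ effect is read.

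The test of a different IFNγ effect at day 5 and day 2 called none of the 44 members by limma, edgeR or DESeq2, where 0.202% of 15837 genes were called higher and 0.474% lower. At an unadjusted p under 0.05 there were 4 S phase and 3 mitotic members. The estimates of day 5 minus day 2 were negative for 21 of the 22 S phase members (-0.32 to 0.05). The IFNγ estimates themselves were positive for 20 S phase members at day 2 and negative for 14 at day 5. Without day 5 IFNγ replicate 1 the test called 1 member lower.

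At day 7, 2 days after IFNγ was withdrawn, S phase members were higher in IFNγ cells of all 3 GFP populations. In GFP-negative cells 20 S phase members were higher and none lower (median 0.54), and 17 mitotic members were higher and 1 lower (median 0.23), against 31.1% of 15531 genes higher and 30.8% lower (median 0.02). In GFP-medium cells 19 S phase members were higher and none lower (median 0.43), and 17 mitotic members were higher and 1 lower (median 0.22), against 33.3% of 15595 genes higher and 29.6% lower (median 0.04). In GFP-high cells 14 S phase members were higher and none lower (median 0.25), and no mitotic member was higher and 1 lower (median 0.04), against 18.1% of 15598 genes higher and 20.4% lower (median 0.03). The absence of lower S phase members in all 3 populations and of higher mitotic members in GFP-high cells was the same by edgeR and DESeq2. Without GFP-high control replicate 1, 4 members were higher in GFP-high cells in place of 14, and without GFP-high IFNγ replicate 1, 2 were lower in place of 1.

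Scaling and markers moved with the comparison of GFP-negative cells. When libraries were rescaled to the same total, the median of all genes moved by 0.157, 66.3% of called genes were higher in place of 50.3%, and 42 members were higher and 1 lower. The ESC marker sum was 21454 and 23847 in control and 35941 and 33570 in IFNγ cells, and the NPC marker sum was 4838 and 4771 against 4989 and 5199.6. The sum over the 6 matrix genes was 4870 and 4221 against 680 and 722, and over the 5 without Dcn 570.5 and 419.5 against 461 and 434.5. Of 5 feeder markers tested 1 was lower. The Y-linked feeder genes were at most 4.9 counts in each of these libraries. In GFP-medium cells the ESC marker sum was 46267 and 47287 against 83039 and 78100 with IFNγ, and in GFP-high cells 92825 and 93175 against 115648 and 106788. The NPC marker sum was 2983 and 3235 against 1548 and 1852 in GFP-medium and 1631 and 1569 against 711 and 747 in GFP-high cells. Without Dcn the matrix sum was 367 and 298 against 196 and 248 in GFP-medium and 137 and 149 against 196.5 and 173 in GFP-high cells, and with Dcn it was 5386 and 4770.4 against 362 and 489, and 2313 and 1818 against 238 and 292. The part of these differences in the result was not tested.

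**Figure D5:**
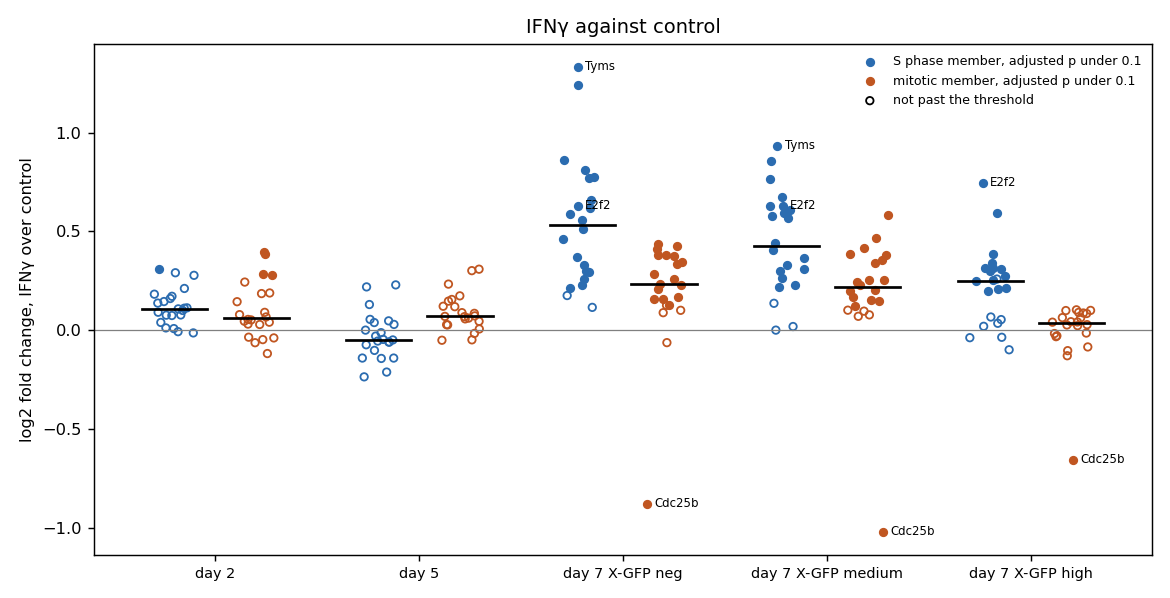
Log2 fold changes of IFNγ over control cells (vertical axis) for the 44 members in the 5 populations (horizontal axis), with 1 point for each gene and S phase and mitotic members in separate columns and colors. S phase members have medians of 0.54, 0.43 and 0.25 from GFP-negative to GFP-high cells, and Cdc25b is the lowest mitotic member in all 3.

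Tyms, of nucleotide supply, had the largest S phase difference in GFP-negative and GFP-medium cells. It had 453 and 587 counts in GFP-negative control and 1169.5 and 1443 in IFNγ cells (2.52-fold, log2 fold change 1.33 ± 0.14 (SE), adjusted p = 5.79e-05). In GFP-medium cells it had 741 and 825 against 1333 and 1671 (1.91-fold, log2 fold change 0.93, adjusted p = 5.93e-05). In GFP-high cells it had 1048 and 1237 against 1561 and 1894 (0.59). All 3 pairs of groups were apart, which the naming rule required in GFP-negative and GFP-medium cells. The GFP-negative control libraries are also those of the fall of Tyms from day 5, so these results are not independent. Rrm2 with IFNγ had 4131 and 4736, 5464 and 5950.3 and 7106 and 7971 in GFP-negative, medium and high cells, which was higher than in control cells by 0.78, 0.58 and 0.32.

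E2f1 had 334 and 356 counts in GFP-negative IFNγ cells against 139 and 151 in control (2.37-fold). With IFNγ it had 414 and 424 in GFP-medium and 454 and 478 in GFP-high cells. The last was above both control libraries but did not pass (0.26, adjusted p = 0.1). E2f2 had 338 and 347, 373 and 438 and 476 and 527 in the 3 IFNγ populations. It passed in each and had the largest S phase increase in GFP-high cells (log2 fold change 0.74 ± 0.11 (SE), adjusted p = 0.000559).

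Helicase subunits were not equal in their differences. With IFNγ, Mcm3 had 7701 and 8249, 10241 and 10939.8 and 12802 and 13584 counts in GFP-negative, medium and high cells, and Mcm2 had 6289.8 and 6969.5, 7779.9 and 8785 and 9767 and 10757. Mcm4 had 6661 and 7434, 8764 and 9082 and 10822 and 11455, and Mcm7 9018 and 9337, 11243 and 11386 and 12161 and 12813. These 4 subunits passed in all 3 populations, with log2 fold changes of 0.62 to 0.86 in GFP-negative, 0.60 to 0.76 in GFP-medium and 0.25 to 0.31 in GFP-high cells. Mcm5 had 10387 and 11228, 12937 and 14604 and 15490.4 and 17538, and Mcm6 11018 and 11729, 12969 and 14212 and 16062 and 16852. For Mcm5 and Mcm6 the values were 0.37 and 0.30 in GFP-negative cells, 0.27 and 0.23 in GFP-medium cells, and -0.04 and 0.07 in GFP-high cells, where neither passed.

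Pcna had 3848 and 4386, 4361 and 4706 and 5341 and 5939 counts with IFNγ, and Cdc6 1335 and 1624, 1748 and 1973 and 1941 and 2306. Both passed in all 3 populations, Cdc6 with 0.81, 0.67 and 0.39. Cdt1 had 4359 and 4404, 5404 and 5943 and 6799 and 7569.7, passed in GFP-negative and GFP-medium cells and overlapped with control in GFP-high cells. Pola1 had 3215 and 3554, 5350.4 and 5540.5 and 9998 and 10837, overlapped with control in GFP-negative cells and passed in the other 2 populations (0.31 and 0.25).

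Of the 22 S phase members 13 were called higher with IFNγ in all 3 populations and 18 in both GFP-negative and GFP-medium cells. Gins1, a GINS subunit, was called in none. Members that did not pass were Gins1 and Pola1 in GFP-negative cells, and Cdc45, Gins1 and Rrm1 in GFP-medium cells. In GFP-high cells they were Cdc45, Cdt1, E2f1, Gins1, Gins2, Mcm5, Mcm6 and Rrm1.

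Mitotic members were higher with IFNγ in GFP-negative and GFP-medium cells by smaller amounts. Ccnb2 rose most, with 3708 and 3605 counts in GFP-negative control and 5287 and 4636 in IFNγ cells (log2 fold change 0.44 ± 0.07 (SE), adjusted p = 0.000956). In GFP-medium cells it had 4582 and 4312 against 7117 and 6216 (log2 fold change 0.58 ± 0.07 (SE), adjusted p = 0.000101). In GFP-high cells it had 5739.6 and 5083 against 6249 and 5271, and the groups overlapped.

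With IFNγ, counts in GFP-negative, medium and high cells were 6785 and 6770.5, 9207 and 8836 and 9999.8 and 10074 for Ccnb1. They were 4675 and 4809.6, 5462 and 5685 and 5616 and 5763 for Cdk1, and 2127 and 2113, 2493 and 2541 and 2693 and 2593 for Plk1. All 3 genes passed in GFP-negative and GFP-medium cells. Aurkb had 2146 and 2154, 2248 and 2331 and 2174 and 2014, and Bub1b 7998 and 8003, 11186 and 10979.5 and 11854 and 11463. Top2a had 27372 and 28121, 34652 and 36075 and 38806 and 38027, and Mki67 17008 and 17580.5, 16891 and 17883 and 14244 and 14989. These 4 also passed in both populations, with log2 fold changes of 0.15 to 0.38.

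Cdc25c had 1372 and 1129, 1295 and 1097 and 946 and 764 counts with IFNγ and passed in GFP-negative and GFP-medium cells. Ccna2 had 7376 and 7235, 8933 and 8762 and 9357 and 8960.0 and passed in GFP-medium cells. Cenpa had 2912 and 2841, 3304 and 2963 and 3135 and 2961 and passed in GFP-negative cells. Cdc20, with 6748 and 6839.8, 8031 and 8141 and 8996 and 8497, passed in none, nor did Cenpe. Of the mitotic list 15 members were called higher in both populations.

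Cdc25b was the 1 mitotic member lower with IFNγ, in all 3 populations. It had 1836 and 1545 counts in GFP-negative control and 984 and 854 in IFNγ cells (log2 fold change -0.88 ± 0.10 (SE), adjusted p = 0.000124). In GFP-medium cells it had 1506 and 1263 against 686 and 674 (log2 fold change -1.02 ± 0.09 (SE), adjusted p = 1.27e-05). In GFP-high cells it had 821 and 718 against 497 and 478 (log2 fold change -0.65 ± 0.10 (SE), adjusted p = 0.000618). The groups were apart in each, which the rule for naming the largest decrease required and which is no support. GFP-high IFNγ cells were the closest of all day 7 populations to the 407 and 407 counts of ESCs.

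Whether the IFNγ effect differed between day 7 populations was tested as an interaction in 8 libraries. From GFP-negative to GFP-medium cells no member passed by limma, edgeR or DESeq2, where 7.31% of 15627 genes were called higher and 8.36% lower. At an unadjusted p under 0.05 there were 2 S phase and 1 mitotic members. With libraries rescaled to the same total, the median of all genes moved by -0.165, the share of calls that were higher was 12.2% in place of 46.6%, and 11 members were lower. With the replicate block 1 was higher and 7 lower, and without GFP-medium IFNγ replicate 2, 3 were lower.

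From GFP-medium to GFP-high cells the effect was smaller for 4 S phase members, Mcm3, Mcm4, Mcm7 and E2f1, and for 9 mitotic members, Ccnb2, Aurkb, Bub1, Ttk, Kif11, Kif20a, Top2a, Mki67 and Cenpf, and larger for none. In this test 4.71% of 15623 genes were called higher and 8.06% lower, and edgeR gave a share of higher calls of 47.5% in place of 36.9%. E2f1 had the widest difference (log2 fold change -0.60 ± 0.16 (SE), adjusted p = 0.046) in the S phase list and Ccnb2 (log2 fold change -0.49 ± 0.13 (SE), adjusted p = 0.0487) in the mitotic list. None of the 44 was called larger by edgeR or DESeq2 either, and both called 8 smaller. The count of 13 was 0 without GFP-medium control replicate 1 and 3 to 4 without 1 of GFP-medium control replicate 2 and both GFP-high control libraries, and it was 24 with the replicate block.

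Other genes of the same processes, from lists that hold no member, were counted the same way. Of 40 further replication genes, such as those of the origin recognition complex and the other polymerase subunits, 31 were higher and 1 lower with IFNγ in GFP-negative cells. The counts were 31 and 0 in GFP-medium cells and 24 and 0 in GFP-high cells. They were 3 (7.5%, against 5.03% of all genes) and 0 at day 2. At day 5, where 1.65% of all genes were higher, they were 0 and 0. From day 5 to GFP-negative control cells 34 of them were lower (85.0%, against 29.5% of all genes) and none higher. At the steps to GFP-medium and GFP-high control cells 35 (87.5%, against 21.9%) and then 36 (90.0%, against 31.4%) were higher. Of 42 further mitotic genes, 22 were higher and 6 lower with IFNγ in GFP-negative, 29 and 5 in GFP-medium and 7 and 6 in GFP-high cells. The shares of all genes were 31.1% higher and 30.8% lower in GFP-negative, 33.3% and 29.6% in GFP-medium and 18.1% and 20.4% in GFP-high cells, so the further mitotic genes in GFP-high cells, at 16.7% and 14.3%, were under the background.

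Regulators of G1 phase did not move in 1 direction. Of 25 such genes 12 were higher and 8 lower with IFNγ in GFP-negative cells, 13 and 9 in GFP-medium cells and 5 and 7 in GFP-high cells. In GFP-high cells these shares, 20% and 28.0%, stood beside 18.1% and 20.4% of all genes. Ccne1, encoding cyclin E1, which drives entry into S phase, was higher by 1.16, 1.10 and 0.70 on the log2 scale. Of the 7 inhibitors of cyclin-dependent kinases in the list, 5 were lower and 1 higher in GFP-negative, 5 and 2 in GFP-medium and 5 and 0 in GFP-high cells. Over all genes 30.8% were lower and 31.1% higher in GFP-negative, 29.6% and 33.3% in GFP-medium and 20.4% and 18.1% in GFP-high cells. Cdkn1a was lower, with -1.64, -1.33 and -1.03. For Cdkn2a the values were -1.04, -1.27 and -1.01, and for Cdkn2b -1.42, -1.24 and -1.50. The class and these 4 genes were chosen from the list after their values were seen. All 12 differences passed the test, which was bound to follow from that choice and is no support. From day 5 to GFP-negative control cells, in the absence of IFNγ, Ccne1 fell by 1.55 and Cdkn1a rose by 1.12. This step and the IFNγ comparison in GFP-negative cells share those control libraries, so they are not independent.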

How the data were processed

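RNA-seq data of 24 libraries, 2 of each of 12 populations, were used, with groups from the sample labels. The authors used STAR with WASP for alignment to mm10, in which strain variants were masked, and HTSeq 0.6.1 for counts of each gene. The signal values the authors deposited are counts divided by a DESeq2 size factor for each library. The X mus fractions they deposited hold 1 value for each gene and population. Dividing by the smallest step of a library gave whole reads, within 0.01, for 100.0% of values in each library, and the recovered whole reads (24746109 to 37056508 per library) entered the alternatives. Of the identifiers, 95.0% were found in GENCODE vM21. Replicates differed by more than counting noise (chi-square divided by its degrees of freedom, 3.16 to 19.28).

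The test was limma 3.58.1 under R 4.3.3 (lmFit, then eBayes with a trend, two-sided) on log2(normalized count + 1), so that fold changes understate those of low genes. Each of 13 comparisons used its 4 libraries and each of 3 interactions its 8 libraries. The mean over those libraries had to exceed 10, and p-values were adjusted over all genes that did by Benjamini-Hochberg with a threshold of 0.1. Single values have no exact test at this size, since 2 libraries against 2 cannot give a two-sided permutation p below 0.33. The procedure was run on simulated data whose changes were larger than most of those above, so smaller changes were not covered. Alternatives were edgeR 4.0.16 (quasi-likelihood) and DESeq2 1.42.0 on whole reads, a pseudocount of 0.1, no filter, rescaled totals, 1 model over 24 libraries, the replicate number as a block, and each library left out in turn.

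Named members were a set fixed by role, with counts in every library, plus in each comparison the S phase and mitotic members with the largest increase and decrease past the threshold whose libraries did not overlap and whose higher group reached a mean of 100. Members and lists were chosen with earlier results of these data known. Columns of the authors' own comparisons were not used. Python 3.11.15, numpy 2.4.6, pandas 2.3.3 and matplotlib 3.10.9 served for summaries.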

Additional observations from a re-analysis of the deposited data

Results flagged for a closer look

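Differences in the IFNγ effect between GFP-high and GFP-medium cells of day 7 stand apart because the difference itself passed the test. GFP-high cells had the smaller effect for 4 S phase members (Mcm3, Mcm4, Mcm7 and E2f1) and for 9 mitotic members (Ccnb2, Aurkb, Bub1, Ttk, Kif11, Kif20a, Top2a, Mki67 and Cenpf). E2f1 had a log2 difference of -0.60 and Ccnb2 of -0.49. E2f1 rose with IFNγ by 0.85 in GFP-medium cells, against 0.26 (not past the threshold) in GFP-high cells. For Ccnb2 the values were 0.58 and 0.09. In control cells both genes were already higher in GFP-high than in GFP-medium cells, by 0.75 for E2f1 and 0.28 for Ccnb2, a comparison that shares those control libraries. Without GFP-medium control replicate 1 none of the 13 passed.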

How the results depend on the processing

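Across 3584 values of named members under the alternatives, 3325 kept their direction and side of the threshold, 259 kept the direction only and 0 reversed. No member past the threshold changed sign, and members not past it did so in 195 of 3732 values. Of 72 index values 19 moved by more than 1 SD. The count of members higher with IFNγ at day 2 went from 5 to 1 without the filter. At day 5 it went from 0 to 4 higher and 1 lower with all 24 libraries in 1 model. Day 2 control cells against NPCs had 2 higher in place of 1 with all 24 libraries in 1 model, edgeR or DESeq2. Without the filter, day 5 against day 2 had 3 lower in place of 5 and GFP-medium against GFP-negative 1 in place of 2. The interaction from GFP-negative to GFP-medium cells had 11 lower in place of 0 after rescaling, and that from GFP-medium to GFP-high cells had 4 lower without the filter and 8 with edgeR and with DESeq2 in place of 13. The cause was not tested.

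The labels number replicates without saying what a number shares. Deviations of same-numbered libraries correlated between -0.146 and 0.406 over the 13 comparisons, were over 0.1 in 7 of them and were highest for IFNγ at day 2 (0.406) and day 5 (0.363). Since each comparison has only 2 pairs and the labels name nothing shared, pairing was neither assumed nor settled, and the IFNγ counts at day 2 and day 5 depend on it. With the replicate block, members higher with IFNγ were 15 at day 2 and 3 at day 5, with 1 lower at day 5. In the interactions the block gave 1 higher and 7 lower from GFP-negative to GFP-medium cells, and 1 higher and 24 lower from GFP-medium to GFP-high cells. A crossed pairing of day 2 control cells with NPCs, added after seeing the data, gave 2 higher.

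With each library left out in turn, a lone library being assumed to vary like the other group, members higher with IFNγ were 1 to 5 at day 2, 0 to 1 at day 5 and 4 to 16 in GFP-high cells, with 0 to 1 lower at day 5 and 1 to 2 lower in GFP-high cells. ESCs against NPCs had 6 to 11 lower, day 2 against NPCs 0 to 2 higher and 20 to 38 lower, day 5 against day 2 had 3 to 5 lower, GFP-medium against GFP-negative 1 to 2 lower, and GFP-high IFNγ cells against ESCs 8 to 17 higher. The interactions had 0 to 1 lower (day 5 and day 2), 0 to 3 (GFP-medium and GFP-negative) and 0 to 13 (GFP-high and GFP-medium). With 2 libraries a population, small differences cannot be separated from the spread, and depth was not limiting at these counts.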

Other observations

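Replication-dependent histone genes supply the histones for newly copied DNA in S phase and lack the poly(A) tail of other mRNAs, so they are seen in RNA depleted of ribosomal RNA. Of 59 such genes 50 could be tested for IFNγ in GFP-negative cells, and 46 were higher (92.0%, against 31.1% of all genes) and none lower with IFNγ (median log2 fold change 0.81). In GFP-medium cells 11 of 51 were higher (21.6%, below the 33.3% of all genes) and none lower, and in GFP-high cells 17 of 52 were higher (32.7%, against 18.1%) and 2 lower. At day 2 and day 5 none was called. The day 5 estimates were mostly negative all the same (median -0.30, upper quartile -0.19). At day 5, 21 of 49 had an unadjusted p under 0.05 by limma, against 2839 of all 15133 genes. Their geometric mean relative to ESCs was 44.6% ± 4.8 (SD, n = 2) in GFP-negative control and 73.6% ± 9.5 in IFNγ cells. The 2 libraries of GFP-medium IFNγ cells differed widely, at 69.6% and 95.3%. From day 5 to GFP-negative control cells 45 were lower (90.0%, against 29.5% of all genes) and 3 higher. At the steps to GFP-medium and GFP-high control cells 45 were higher each time (88.2% and 86.5%, against 21.9% and 31.4%). Unlike the S phase members they were lower in ESCs than in NPCs, where NPCs had an index of 138% ± 19.1. Of them 43 were lower and 3 higher (82.7% and 5.77%, against 43.4% and 42.2% of all genes). Many of these genes are near-identical to others of the same histone type, so their single counts are uncertain.

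Kif4, an X-linked gene of a chromosome motor in the list of further mitotic genes, has an X mus share beside that of Pola1. It was 49.9% in ESCs, 0.972% in NPCs, 11.6% in GFP-medium and 32.3% in GFP-high control cells, and 26.1% and 41.5% in the IFNγ cells of these populations.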
